A study of Mus musculus with 4 samples.

Results

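The imprinted genes *Grb10*, *Cdkn1c*, *Plagl1* and *Peg10* were followed in mouse embryonic stem cells (mESCs) after knockdown of *Rhox6*. They were taken by name from a table of 920 genes, and all 4 names were found. The table holds genes that the authors had already called as changed in these same libraries, and the 4 genes were selected on their levels in these 4 libraries, with the differences known. Their difference between the groups is therefore described here and not tested. The cells were 46C mESCs, a line that carries a green fluorescent reporter in the neural gene *Sox1*. One group of 2 libraries had received *scramble* control lentivirus (the controls) and the other group of 2 had received *Rhox6* shRNA lentivirus, and both were collected after 24 h in medium with serum. LIF is not mentioned in the labels, although it is part of the mESC medium in the study's methods. All libraries come from this single line, and whether replicate libraries were grown as separate cultures is not stated. *Rhox6*, a homeobox gene on the X chromosome, has no row in the table, so the labels could not be checked by the level of the targeted gene. The level is a normalized value in a unit that the sources do not name, with no read counts, so the depth behind it is unknown. Levels are therefore compared between libraries for the same gene, and not between genes. Where levels of several genes are subtracted or summed below, the result is likewise compared between libraries only.

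An imprinted gene is expressed mainly from the copy inherited from one parent, because DNA methylation in the egg or the sperm marked the copies differently. Imprinted genes lie in clusters, are known for their part in fetal growth and the placenta, and can lose their marks in cultured stem cells. *Grb10* and *Cdkn1c* are expressed from the maternal copy in most mouse tissues, whereas *Plagl1* and *Peg10* are expressed from the paternal copy. RNA sequencing summed per gene adds both copies together, so the levels below do not show which copy was read.

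The 4 genes lie on 4 chromosomes of GRCm38, as annotated in GENCODE M21. *Grb10* (ENSMUSG00000020176) is on the minus strand of chromosome 11 from 11930508 to 12038683. *Cdkn1c* (ENSMUSG00000037664) is on the minus strand of chromosome 7 from 143458339 to 143461050. *Plagl1* (ENSMUSG00000019817) is on the plus strand of chromosome 10 from 13060504 to 13131694, and *Peg10* (ENSMUSG00000092035) is on the plus strand of chromosome 6 from 4747306 to 4760517. All of them code for protein. An antisense gene, *Gm44732*, overlaps *Cdkn1c*, and a small RNA gene on the other strand, *Gm27741*, overlaps *Plagl1*. Neither has a row in the table, and whether the counting used the strand is not given in the sources used here.

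Methylation at CpG dinucleotides marks the parental copies of imprinted genes. The 250 bases before the RefSeq start sites of *Plagl1* and *Grb10* are shown with each CpG in capitals. These are the members with higher levels after knockdown. The sequences are from RefSeq on GRCm38.p6, and the table used here matched these 2 of the 4 genes. The promoters of *Cdkn1c* and *Peg10* were not analysed here. The *Plagl1* sequence is chr10:13090582-13090831 on the plus strand, and its start site lies inside the longer GENCODE gene. The *Grb10* sequence is chr11:12037421-12037670 on the minus strand.
*Plagl1*: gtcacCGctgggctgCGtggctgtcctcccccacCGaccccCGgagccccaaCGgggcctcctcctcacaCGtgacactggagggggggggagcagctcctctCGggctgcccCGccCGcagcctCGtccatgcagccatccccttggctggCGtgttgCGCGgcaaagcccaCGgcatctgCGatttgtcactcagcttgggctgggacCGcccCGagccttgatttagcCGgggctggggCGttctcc
*Grb10*: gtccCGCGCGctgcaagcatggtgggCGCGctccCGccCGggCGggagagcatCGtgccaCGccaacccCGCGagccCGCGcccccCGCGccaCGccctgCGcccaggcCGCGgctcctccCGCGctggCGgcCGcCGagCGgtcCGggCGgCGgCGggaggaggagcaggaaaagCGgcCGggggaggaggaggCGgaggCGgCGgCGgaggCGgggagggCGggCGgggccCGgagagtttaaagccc
The *Plagl1* stretch holds 19 CpG dinucleotides and the *Grb10* stretch holds 40, against a median of 6 over 32851 RefSeq promoters of the same length. A start site of *Grb10* farther along the gene, with its 250 bases at chr11:12027972-12028221, has 8. The letters TGCCGC, which the imprint-keeping zinc finger protein ZFP57 binds when methylated, were searched on both strands. They occur once before *Plagl1*, on the strand opposite to the one printed and beginning at base 161 of the printed run. They were not found before either start of *Grb10*, and 8.68% of all promoters hold them. Methylation was not measured in these libraries, and whether these stretches hold the imprinted mark of either gene was not looked up. The CpG counts and the search for TGCCGC therefore describe the stretches only, and not the imprint.

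One maternally and one paternally expressed gene had higher levels after *Rhox6* knockdown, and the other maternally and the other paternally expressed gene had lower levels. *Grb10* encodes an adaptor protein that binds the insulin and IGF1 receptors and restrains growth. Its level was 20.06 and 22.52 in the controls, against 58.71 and 56.43 after *Rhox6* knockdown. Both knockdown libraries were thus well above both controls. The means were 21.3 ± 1.7 and 57.6 ± 1.6 (SD, n = 2 each), with a ratio of 2.70 and a difference of 1.40 on the scale of log2(level + 1).

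*Plagl1* encodes a zinc finger transcription factor, also called Zac1, that restrains cell division and acts on other imprinted genes. Its level was 0.16 and 0.57 in the controls, against 2.59 and 2.55 after *Rhox6* knockdown. The groups did not overlap, but the control libraries were close to 0 and far apart in relative terms, whereas the knockdown libraries nearly coincided. The means were 0.365 ± 0.29 and 2.57 ± 0.028 (SD, n = 2 each). The ratio of the means was 7.04, and ratios of single libraries ran from 4.47 to 16.2, so the size of the fold change is poorly fixed. On the log2(level + 1) scale, which understates the change of low genes, the difference was 1.40.

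*Cdkn1c* encodes p57Kip2, an inhibitor of cyclin-dependent kinases that holds cells in the G1 phase. Its level was 195.78 and 211.64 in the controls, against 99.58 and 101.21 after *Rhox6* knockdown. Both knockdown libraries lay below both controls and were closer to each other than the controls were. The means were 204 ± 11.2 and 100.4 ± 1.2 (SD, n = 2 each), so the control mean was 2.03 times the knockdown mean, and the log2 difference was −1.01.

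*Peg10* derives from a retrotransposon and still encodes proteins like its gag and pol products, and it is needed for the mouse placenta. Its level was 97.89 and 98.28 in the controls, against 41.14 and 45.42 after *Rhox6* knockdown. Here the controls nearly coincided, and the spread was among the knockdown libraries. The means were 98.1 ± 0.28 and 43.3 ± 3.0 (SD, n = 2 each), the control mean was 2.27 times the knockdown mean, and the log2 difference was −1.16.

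**Figure D1:**
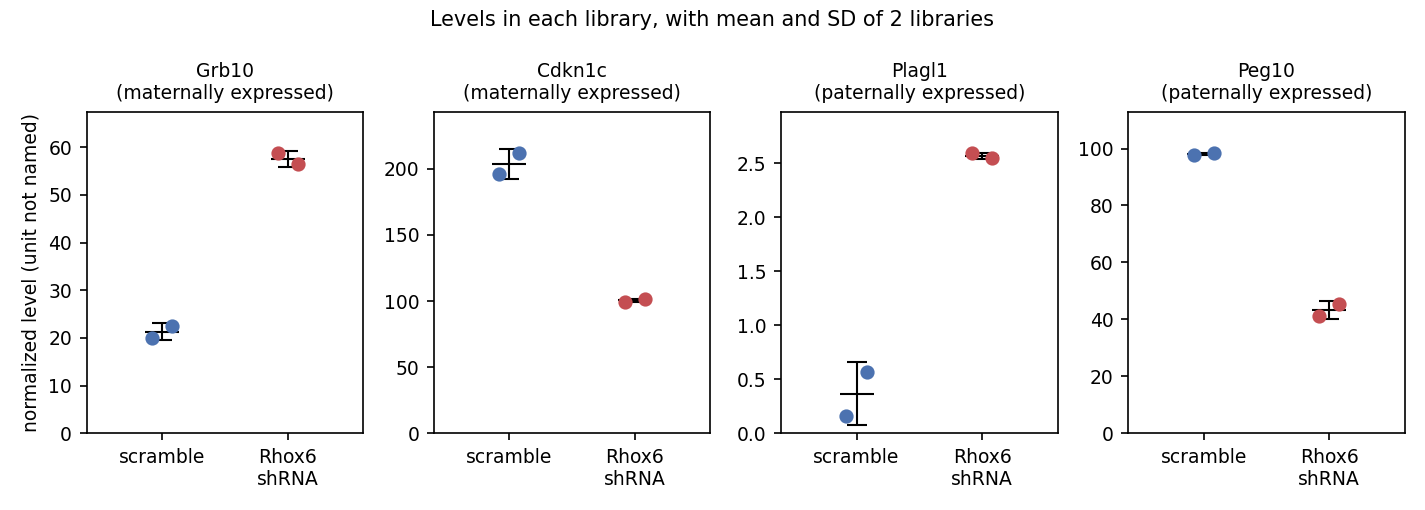
Normalized level (vertical axis, unit not named, from 0) of each gene in the *scramble* (blue) and *Rhox6* shRNA (red) libraries. Points are libraries, and bars are the mean with the SD of 2 libraries. *Grb10* and *Plagl1* are higher in both knockdown libraries, at ratios of the means of 2.70 and 7.04, while *Cdkn1c* and *Peg10* are lower in both.

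A limma fit over the whole table, with a Benjamini-Hochberg adjusted p under 0.05 and an absolute log2 difference of at least 1 as the call, passed 47.8% of the 920 genes. It called 30.8% of the genes higher and 17.1% lower. All 4 members were among the calls, 2 in each direction, which follows from how they were chosen. For *Cdkn1c* the log2 difference was −0.96 without *scramble* replicate 2, which is short of the limit of 1. With each library brought to the same total level, the calls over the table were 146 higher and 254 lower in place of 283 and 157. The median over the table of the log2 difference was then 0.45 in place of 0.56, the median of the shifts of single genes was −0.21, and the 4 members kept their directions. The groups did not overlap for any member, as was the case for 98.4% of the listed genes. The log2 gap between the libraries of a group was at most 0.16 for *Grb10*, *Cdkn1c* and *Peg10*, while it was 0.44 between the *scramble* libraries of *Plagl1*. The median gap over the table was 0.14 for *scramble* and 0.13 for *Rhox6* shRNA.

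**Figure D2:**
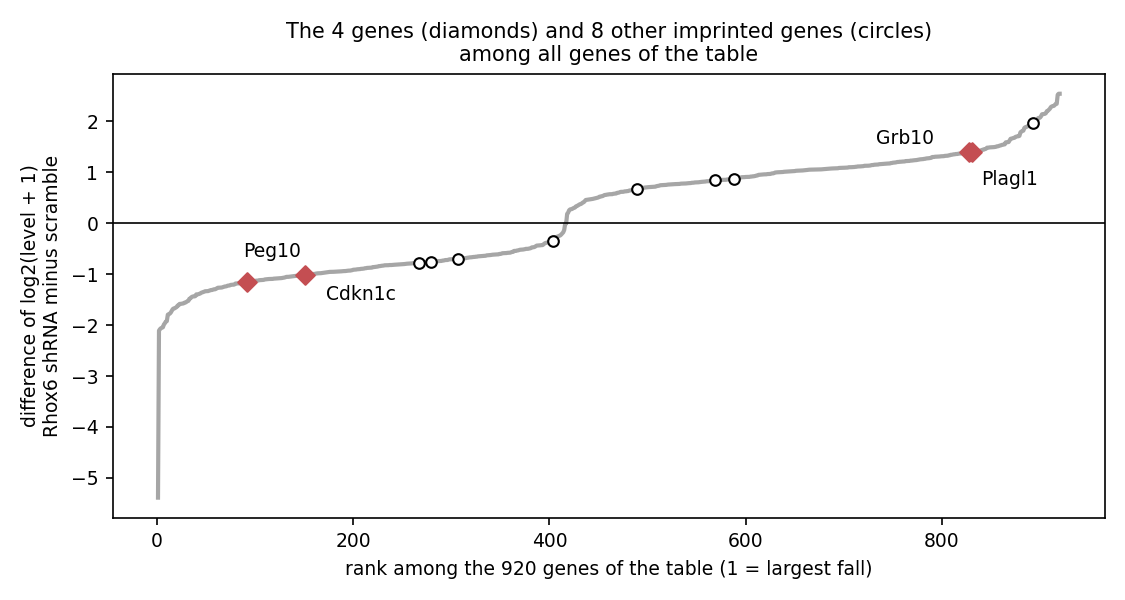
Difference of log2(level + 1), *Rhox6* shRNA minus *scramble* (vertical axis), of all 920 genes in order of that difference (horizontal axis, rank 1 is the largest fall). Diamonds are the 4 genes and circles the 8 other imprinted genes of the table. *Plagl1* and *Grb10* had the 90th and 93rd largest increase, and *Peg10* and *Cdkn1c* the 92nd and 151st largest decrease.

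Among the members, the parental copy did not separate the genes by direction. They were chosen with their directions known, so this says nothing about imprinted genes in general. The other listed imprinted genes are given below. Within the maternally expressed pair, the difference between *Grb10* and *Cdkn1c* on the log2(level + 1) scale moved by 2.41 from *scramble* to *Rhox6* shRNA libraries. Within the paternally expressed pair, the difference between *Plagl1* and *Peg10* moved by 2.57. Between genes that went the same way, the change was −0.01 for *Grb10* against *Plagl1* and 0.15 for *Cdkn1c* against *Peg10*. These are contrasts inside each library, so apart from the added 1 they do not depend on how the libraries were scaled. The added 1 matters for contrasts with *Plagl1*, whose control levels were low. With 0.1 added in its place, the log2 difference was 1.43 for *Grb10* and 2.68 for *Plagl1*. The value of −0.01 therefore does not show that these genes changed by the same factor.

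Averaged over each pair, the maternally minus the paternally expressed genes stood at 2.59 and 2.50 on the log2(level + 1) scale in the controls, against 2.66 and 2.58 after *Rhox6* knockdown. The change of 0.07 was close to the spread within the groups (SD 0.060 and 0.055, n = 2 each), and the ranges overlapped. Its sign depends on the number added before the log, being −0.15 with 0.5 and −0.54 with 0.1 in place of 1.

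Other imprinted genes of the table were looked up from lists of 43 maternally and 40 paternally expressed genes. Besides the 4 members, 5 maternally and 3 paternally expressed genes were listed. Absence from the table is no measurement, since it holds called genes only. Of the 5 maternally expressed genes, 1 had a higher and 4 had a lower mean in *Rhox6* shRNA libraries, and all 3 paternally expressed genes had a higher mean. Over the table, the knockdown mean was the higher one for 54.7% of the genes and the lower one for 45.3%. With the members included, 2 maternally expressed genes were higher and 5 lower, and 4 paternally expressed genes were higher and 1 lower. The median log2 difference was −0.70 for the 7 maternally and 0.87 for the 5 paternally expressed genes, against 0.56 over the table. Several of these genes are imprinted in some tissues only, and imprinting in these cells was not measured. Among the 6 listed genes imprinted in many tissues, the 4 members included, 3 were higher and 3 were lower. Of the 8 other imprinted genes, only *Ddc* passed the call with its limit of 1 on the log2 scale, against 47.8% of the table. This count depends on the 1 added before the log, which shrinks differences at low levels. With 0.1 added, the log2 difference was 2.05 for *Ddc*, 2.27 for *Peg12*, 2.03 for *Dio3* and 0.92 for *Phactr2*. It was −1.46 for *Asb4*, −1.14 for *H19*, −1.10 for *Axl* and −1.08 for *Atp10a*. Over the table, 473 genes were then called higher and 340 lower. The groups did not overlap for any of the 8, which is near the 98.4% of the table.

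**Figure D3:**
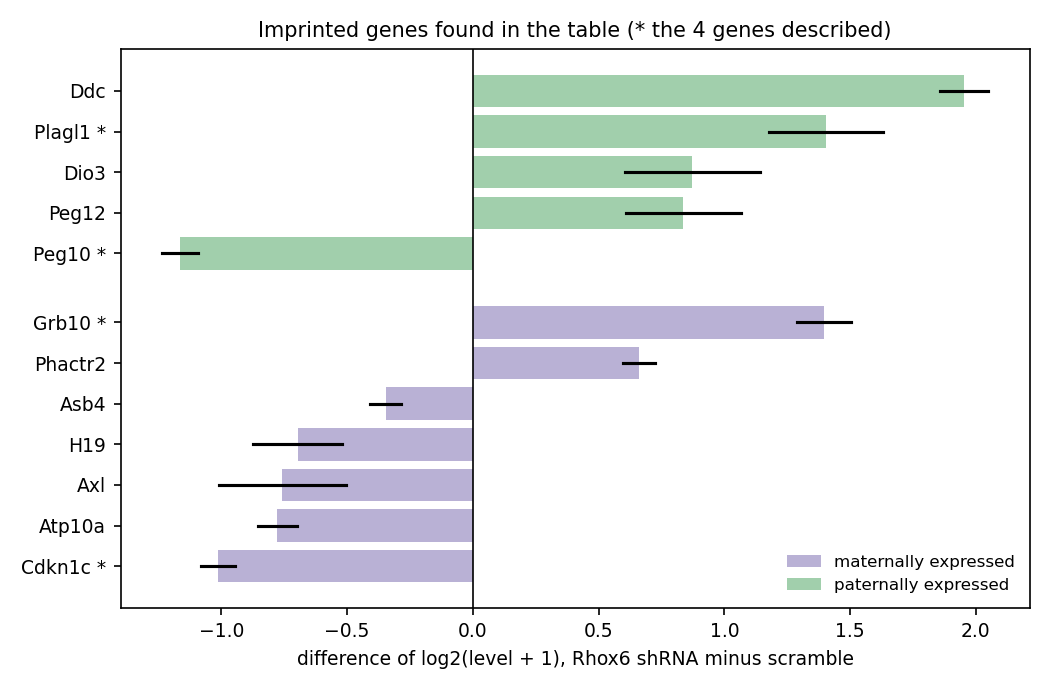
Difference of log2(level + 1), *Rhox6* shRNA minus *scramble* (horizontal axis), for the 7 maternally (purple) and 5 paternally (green) expressed genes of the table. Bars are the difference of the group means, and black lines span the differences between single libraries. *Grb10* and *Phactr2* are the higher ones among the maternally expressed genes, and *Peg10* is the lower one among the paternally expressed genes.

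Among the paternally expressed genes, *Peg12*, a member of the Frat family that binds the kinase Gsk3, was at 0.08 and 0.20 in the controls, against 1.26 and 0.83 after *Rhox6* knockdown. *Dio3*, which inactivates thyroid hormone, was at 0.54 and 0.11 in the controls, against 1.45 and 1.34 after *Rhox6* knockdown. Both knockdown libraries were above both controls for each gene, from control levels below 1, so the size of the change is poorly fixed. Ratios of single libraries ran from 4.15 to 15.8 for *Peg12* and from 2.48 to 13.2 for *Dio3*. Among the maternally expressed genes, *Atp10a*, which encodes a phospholipid flippase, was at 3.45 and 3.19 against 1.58 and 1.46. *Axl*, which encodes a receptor tyrosine kinase, was at 3.25 and 2.49 against 1.11 and 1.46. The imprinting of these last genes has been described in some tissues or strains only, and they are the less certain entries of the list. Of 34 genes imprinted in many tissues, 6 were listed, the 4 members with *H19* and *Peg12*.

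Each member had at least 1 other listed gene with a start site within 1 Mb, and these neighbours went the way of the member. Downstream of *Grb10*, 141 kb from its start, lies *Ddc*, the decarboxylase that makes dopamine and serotonin, whose paternal copy is preferred in the developing heart. *Ddc* was at 9.14 and 10.07 in the controls, against 40.98 and 39.16 after *Rhox6* knockdown, a ratio of the means of 4.17. Its antisense gene *1700042O10Rik* was at 0 and 0.22 against 2.47 and 2.17. Without strand information, reads of these overlapping genes cannot be told apart.

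*Phactr2*, a regulator of actin and protein phosphatase 1 that is maternally expressed in placenta, starts 414 kb from *Plagl1*. It was at 1.57 in both controls, against 3.25 and 2.89 after *Rhox6* knockdown. *H19*, a maternally expressed noncoding RNA that starts 883 kb from *Cdkn1c*, was at 2.01 and 2.13 against 0.71 and 1.10. *Asb4*, a maternally expressed gene that starts 636 kb from *Peg10* and encodes a SOCS box protein, was at 0.34 and 0.38 against 0.04 and 0.10. Thus *Ddc* and *Phactr2* were higher beside members that were higher, and *H19* and *Asb4* were lower beside members that were lower, also where the neighbour is expressed from the other parental copy. All 5 pairs of a member with a listed neighbour shared their direction. Such sharing was common in the table, at 73.2% of 813 pairs of listed genes within 1 Mb, so 5 of 5 pairs do not set these loci apart. The windows held 8, 26, 11 and 15 other protein-coding genes around *Grb10*, *Cdkn1c*, *Plagl1* and *Peg10*, most of which have no row.

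**Figure D4:**
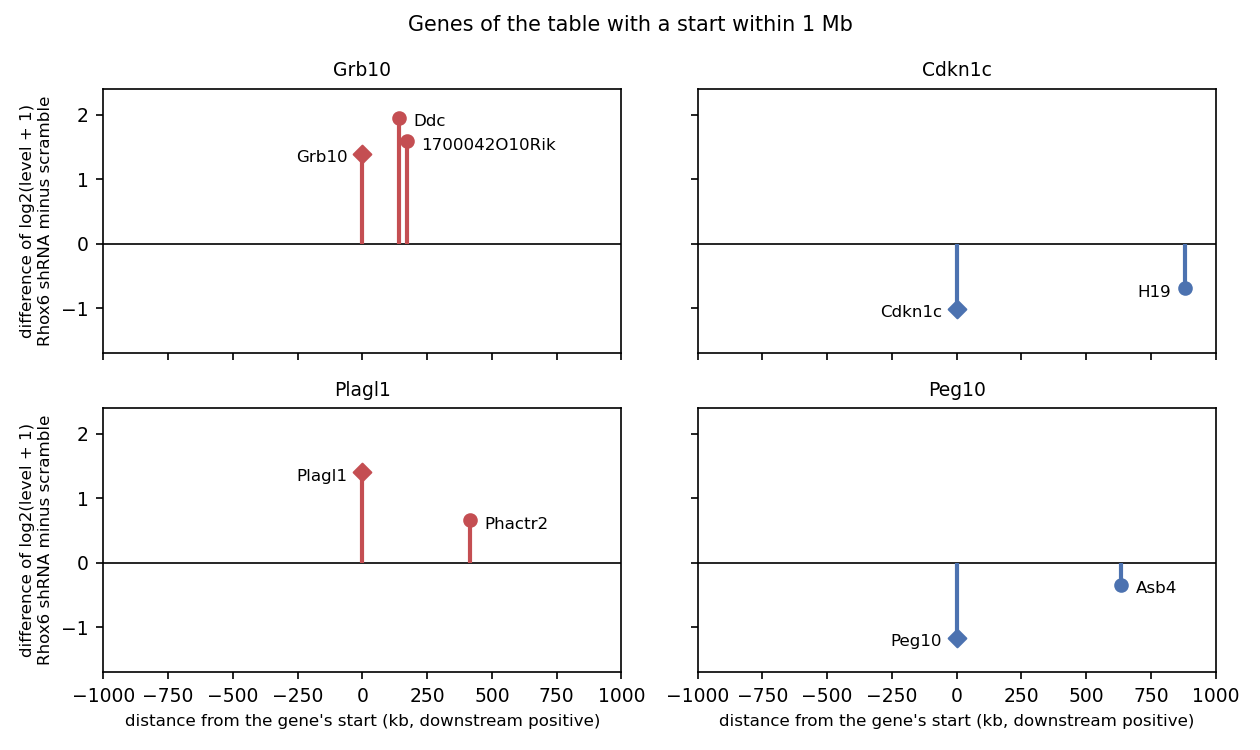
Difference of log2(level + 1), *Rhox6* shRNA minus *scramble* (vertical axis), of each gene (diamond) and of the listed genes that start within 1 Mb (circles), against the distance from the gene's start in kb (horizontal axis, downstream positive). Red is higher and blue is lower in knockdown libraries. *Ddc* reaches 1.95 beside *Grb10*, while *H19* is at −0.70 beside *Cdkn1c*.

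The partners of the 4 genes had few listed members. Of 20 genes of G1 control and CDK inhibition, *Ccnd2* was listed. It encodes cyclin D2, a promoter of passage through G1, and it was at 3.46 and 3.01 in the controls, against 15.79 and 15.71 after *Rhox6* knockdown. The direction of *Ccnd2* was thus opposite to that of *Cdkn1c* in these libraries. Of 18 genes that keep imprints or methylate DNA, *Dnmt3b* was listed. It encodes a de novo DNA methyltransferase and was at 182.33 and 202.34 in the controls, against 92.76 and 92.01 after *Rhox6* knockdown. Of 16 genes of the imprinted gene network around *Plagl1*, *Grb10*, *Cdkn1c* and *H19* were listed. None of 24 genes of insulin and IGF signaling and none of 19 relatives of *Peg10* among retrotransposon-derived genes had a row.

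The genes closest in pattern to each member were ranked by the Euclidean distance of centred log2(level + 1) over the 4 libraries, which is a description over 4 points. The groups did not overlap for 98.4% of the listed genes, and distances between other genes were not set beside these. Closeness in pattern is therefore no link. Closest to *Grb10* were *Zfhx2*, *Myo1f* and the neural adhesion gene *Ncam1*, at distances of 0.067 to 0.077. Closest to *Cdkn1c* were *Gldc*, which encodes the glycine decarboxylase, *Dnmt3b* and *Fgd5*, at 0.035 to 0.069. *Gldc* was at 94.96 and 102.27 in the controls, against 48.49 and 47.64 after *Rhox6* knockdown. Closest to *Plagl1* were 3 noncoding genes, *Gm27234*, *Mir9-3hg* and *Platr7*, at 0.032 to 0.14. Closest to *Peg10* were *Hspb11*, *Klc3* and the AP-1 factor gene *Junb*, at 0.039 to 0.075. *Dnmt3b*, which had its own place on the list of methylation genes, was the only one of these 12 genes on any of the lists about imprinting.

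**Figure D5:**
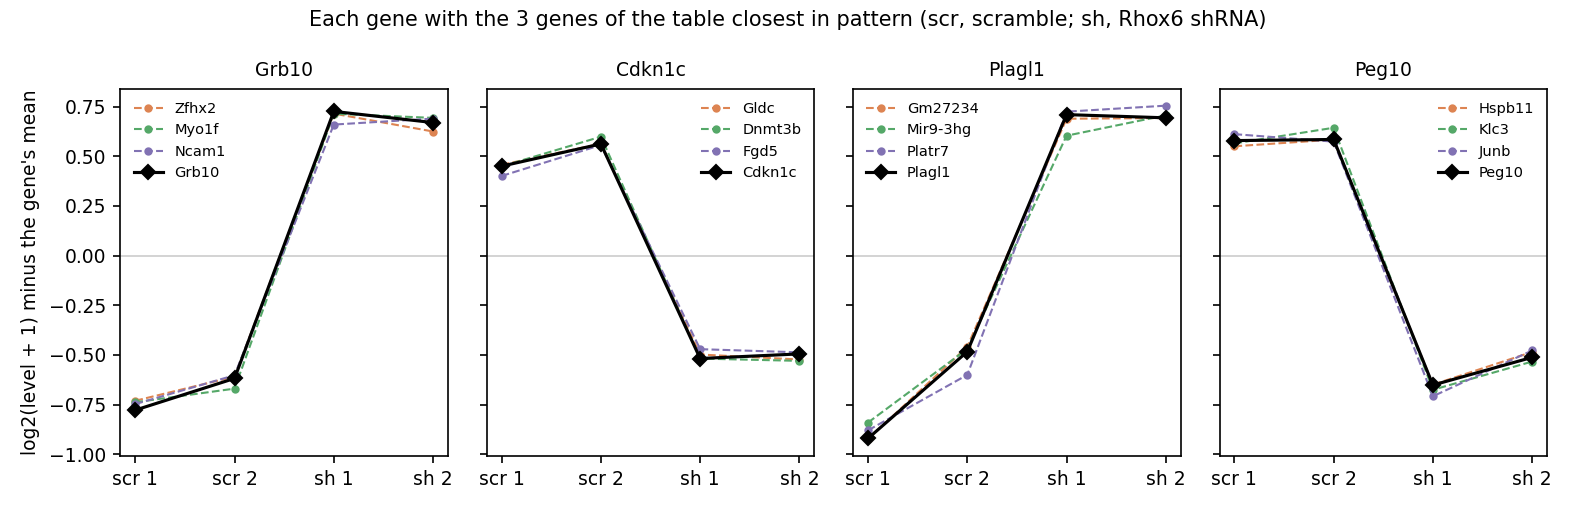
Centred log2(level + 1) (vertical axis) in the *scramble* (scr) and *Rhox6* shRNA (sh) libraries (horizontal axis) for each gene (black diamonds) and the 3 genes of the table closest to it (coloured, dashed). Lines join the libraries of a gene for reading only. *Cdkn1c* runs beside *Gldc* at a distance of 0.035, and *Plagl1* shows a gap of 0.44 between its *scramble* libraries, which *Gm27234* shares closely.

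Markers of several cell types were listed. The members went both ways, so any listed marker shares the direction of some of them, and a shared direction is no link. In bulk samples, fewer cells of a type and less RNA per cell cannot be told apart. Of 16 mESC markers, *Nanog*, *Klf4* and *Tbx3* were listed. Their summed level, mostly *Nanog*, was 171 to 175 in *scramble* and 451 to 463 in *Rhox6* shRNA libraries. In the paper's qRT-PCR of candidate genes after *Rhox6* knockdown, *Nanog* was among the exceptions that did not change in the anticipated way. *Klf4* and *Tbx3* were not among those exceptions. The mESC label is borne by *Nanog*, *Klf4* and *Tbx3* only, as the other mESC markers have no row. Of 17 markers of primitive endoderm, *Gata6*, *Dab2* and *Cubn* were listed and were lower. Their sum was 27.9 to 29.6 in *scramble* and 6.64 to 7.21 in *Rhox6* shRNA libraries. Of the trophoblast markers besides *Peg10* itself, *Krt18* and *Krt19* were lower and *Gata3* was higher, and their sum was 29.8 to 31.3 in *scramble* and 10.9 to 13.2 in *Rhox6* shRNA libraries. *Gata3* was at 0.02 and 0 in the *scramble* libraries. Of 14 fibroblast markers, *Vim* and *Twist1* were listed and were higher. Their sum, mostly *Vim*, was 82.1 to 94.5 in *scramble* and 180 to 198 in *Rhox6* shRNA libraries. The part of these cell types in the levels of the 4 genes was not tested.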

How the data were processed

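RNA was measured in 2 *scramble* and 2 *Rhox6* shRNA libraries of 46C mESCs, grouped by their sample labels. The authors deposited a table of 920 genes, all of them marked as significant, with a normalized signal (the level, 2 decimals) for each library, whose unit no source names. The table also holds the authors' group means, fold changes and p-values, which were not used. Bowtie 0.12.2 and mm9 stand in the processing notes of the submitters, while the read counter is not given in the sources used here. Which *Rhox6* hairpin each library carried is not stated in the labels.

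Levels were taken to log2(level + 1). A model in limma 3.58.1 (R 4.3.3) was fitted to the groups with a variance trend and Benjamini-Hochberg adjustment over the 920 genes. This fit served only for the share of calls over the table. The model was first run on simulated data in which most genes were unchanged, unlike in this table of called genes. That run therefore says little about the share of calls here. Named were the 4 members, all listed genes of the lists given above, the 3 genes closest in pattern to each member and listed genes within 1 Mb. The members and lists were chosen with earlier results of these data known. The pairs of listed genes within 1 Mb were counted after the values were seen. Places of 919 genes were taken from GENCODE M21 by gene ID, and promoter sequences from RefSeq on GRCm38.p6, not the build named in the notes. With 2 libraries a group, the smallest two-sided p of an exact permutation test is 0.333. Alternatives changed the pseudocount, filter, scaling, variance trend, replicate block and libraries used.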

Additional observations from a re-analysis of the deposited data

How the results depend on the processing

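The 4 members kept their directions under every alternative tried. As their groups do not overlap, only the change of scaling could have reversed a direction, so this is little support. With each library brought to the same total level over the table, the log2 difference was 1.09 for *Grb10*, −1.32 for *Cdkn1c* and −1.47 for *Peg10*. That of *Plagl1* was 1.87 and 2.68 with 0.5 and 0.1 added to the levels, and 2.82 as the log2 ratio of the mean levels, an alternative chosen after seeing the data. Leaving out 1 library gave 1.32 to 1.48 for *Grb10*, −1.07 to −0.96 for *Cdkn1c*, 1.19 to 1.62 for *Plagl1*, −1.23 to −1.09 for *Peg10*, and 0.03 to 0.11 for the change of the maternally minus the paternally expressed genes. That change reversed to −0.15 and −0.54 with 0.5 and 0.1 added, where *Plagl1* weighs more by construction. Imprinted genes listed were 6 in place of 12 with the shorter list. Over the table, 283 genes were called higher and 157 lower. These counts were 473 and 340 with 0.1 added, 378 and 243 with 0.5 added, and 146 and 254 with equal totals. With the replicate number as a block they were 284 and 157, and the numbers did not pair the libraries (correlation of their deviations −0.04). Without read counts, the depth that limits low levels such as those of *Plagl1* is unknown.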
